A study of Caenorhabditis elegans with 28 samples.

Results

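Wild-type Caenorhabditis elegans larvae (strain N2) were sampled every hour from 18 to 31 h after plating, and the hours were compared here by their place in a 7 h cycle. Of the 28 small RNA libraries of the series, 10 entered the comparison. Phase A held the 4 libraries of 21, 22, 28 and 29 h, and phase B, at the opposite side of the cycle, held the 6 libraries of 18, 19, 24, 25, 26 and 31 h. The 4 remaining wild-type libraries (20, 23, 27 and 30 h) lay between the phases and were used only for the fits of a full rhythm, and the 14 libraries of the ebax-1(tm2321) mutant were left out. All larvae carried the wild-type genotype, received no treatment, were synchronised as L1 larvae and grew at 25°C with 2000 worms per plate. Each hour was 1 library of whole animals and the labels name no replicate cultures. The p-values therefore reflect how far single libraries scatter around the model, which may be technical, and neighbouring hours are not independent. In whole larvae, less RNA per cell and fewer cells of a type cannot be told apart.

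Larvae of this worm moult at the end of each larval stage, and a large part of their mRNAs rise and fall once per moulting cycle. A miRNA is cut from a hairpin precursor as a duplex of a 5p and a 3p arm. The guide arm is retained by an Argonaute protein and represses mRNAs that pair with its seed, whereas the passenger arm is usually released and degraded. Both arms derive from the same transcript, and their ratio compares them within a hairpin. The guide was defined here as the arm with the higher mean over the 14 wild-type libraries, and an arm without a partner in the table was counted as a guide. In some hairpins, such as miR-41, miR-42, miR-43, miR-241 and miR-788, this arm is not the one that the study modelled as guide.

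Levels are given as normalised counts, that is, counts scaled from each library's total to the mean total of all 28 libraries, so each value is a share of all counted miRNA reads. Differences are given as log2(phase A) minus log2(phase B) after a pseudocount of 8 and with a linear term for the hour, with the SE of limma. Wild-type libraries held 4938126 (29 h) to 11683557 (25 h) counts and 319 to 349 arms with a read. Total counts did not differ between phases beyond the spread of the libraries (two-sided exact permutation test, p = 0.290, adjusted p = 0.419 over 4 library measures), but the shallowest library belongs to phase A. Of the 12 guide arms taken as tissue markers (epidermis, glia, intestine, muscle and neurons), 1 was higher and 0 were lower in phase A. Over all arms tested, 1.57% were higher and 0.783% were lower. The higher marker was miR-240-5p of the intestine, and its call rests on the linear term for the hour. The other intestinal guides, miR-60-3p and miR-786-3p, differed by -0.17 and 0.15 and did not pass. The paper cites promoter analysis that also places miR-240 and miR-786 in spermatheca, uterus or both. The summed levels of each marker list overlapped between the phases, for example 367718 to 697699 in phase A and 490168 to 681264 in phase B for the muscle miRNA miR-1-3p.

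The first question was which arms differ between opposite phases. In phase A, 6 arms were higher and 3 were lower among 383 tested, 2.35% in all (limma, Benjamini-Hochberg adjusted p under 0.05; 1.57% higher and 0.783% lower), and the median difference of all arms was -0.0028. miR-237-3p, the passenger arm of a hairpin of the lin-4 family, had the largest difference among the called arms, and the guide arm miR-235-3p, the worm relative of miR-92, had the largest of the called arms in the opposite direction. The count depends on single libraries. It was 1 without the library of 18, 21, 22 or 25 h, with miR-237-3p as the remaining arm each time, 2 without 29 h (miR-237-3p and miR-79-5p) and 18 without 28 h. In 25 to 31 h alone 0 of 383 arms passed limma, with 23 at an unadjusted p under 0.05. That fit holds only 2 phase A and 3 phase B libraries, so it has little power. On the counts of all 10 libraries edgeR called 18 arms and DESeq2 26, each including the 9 of limma. Among the further arms that passed both count tests were let-7-3p (edgeR log2 difference 3.80, adjusted p = 0.0430), lin-4-3p (2.21, 0.0454), miR-39-5p (1.90, 0.0304) and miR-44-5p (1.56, 0.0486). In 6 arms every phase A library lay above every phase B library and in 4 every one lay below (2.61% of arms together), and 4 of these 10 did not pass the test. They were miR-58a-5p, miR-354-3p, miR-60-5p and miR-236-5p, named after their values were seen. Of these, miR-354-3p was barely detected. Its log2 levels were 3.14 to 3.29 in phase A and 3 to 3.13 in phase B, where 3 means no read.

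**Figure D1:**
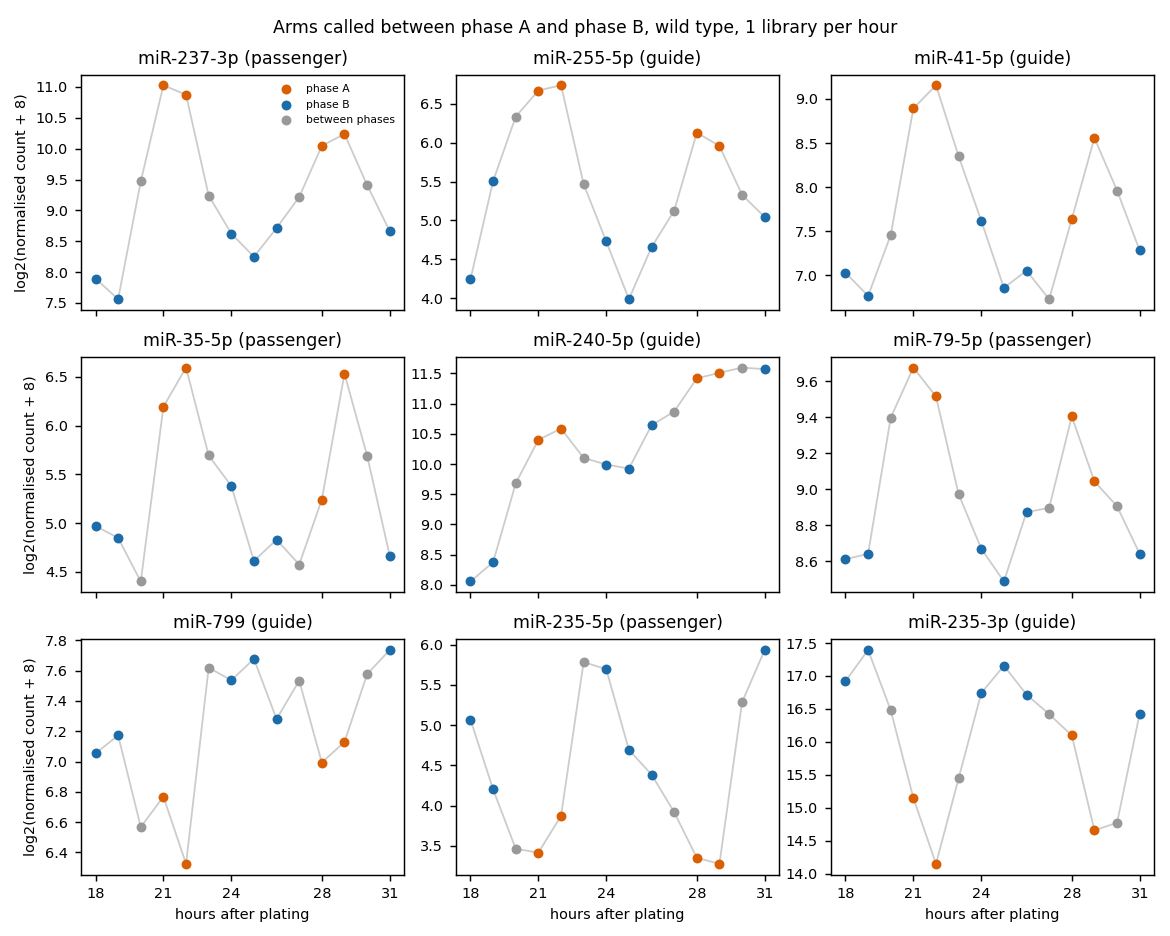
The deposited log2 level (y axis, log2 of normalised count plus 8) of the 9 called arms by hours after plating (x axis), with 1 library per point, coloured by phase. miR-237-3p reached 2080 and 1200 normalised counts at 21 and 29 h, and miR-235-3p was lowest at 22 h and at 29 h.

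miR-237-3p measured 2080, 1867, 1050 and 1200 normalised counts at 21, 22, 28 and 29 h. In phase B its lowest value was 181, its median 341 and its highest 412. The groups did not overlap, and the libraries between the phases lay at 587 to 702. The means were 1549 ± 501 (SD, n = 4) in phase A and 317 ± 96.7 (SD, n = 6) in phase B, with a log2 difference of 2.24 ± 0.29 (limma adjusted p = 0.00741), a fold of 4.71. With each library left out in turn, the call held in 10 of 10 fits and the difference lay between 1.99 and 2.42. Its guide arm miR-237-5p, which was far more abundant at a mean of 203267, differed by 0.06 ± 0.18 (adjusted p = 0.914).

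miR-235-3p measured 36312, 18141, 70120 and 25829 normalised counts in phase A at 21, 22, 28 and 29 h. Phase B ran from 88193 over a median of 116698 to 172382. All phase A libraries were below all phase B libraries, with the 28 h library closest to them. The log2 difference was -1.86 ± 0.35 (limma adjusted p = 0.0329), a level 3.64-fold higher in phase B. Without 1 library the difference lay between -2.24 and -1.51 and the call held in 5 of 10 fits, being lost without 18, 21, 22, 25 or 29 h (adjusted p up to 0.130). Its passenger miR-235-5p, rare at a mean of 18.9, measured 2.68, 6.64, 2.21 and 1.69 in phase A against 10.4 to 53.2 in phase B. Those phase A values lie near the floor that 3 counts set in a library (2.15 to 5.08 normalised counts, counting error only). The difference of -1.56 ± 0.34 (limma adjusted p = 0.0483) shrank to -0.73 ± 0.20 with a pseudocount of 32 (adjusted p = 0.127), and the call held in 2 of 10 fits without 1 library (adjusted p up to 0.162). The ratio of the arms of miR-235 did not pass the test (-0.30 ± 0.52, limma adjusted p = 0.758). It was not steady, however. After the pseudocount it fell from 9365 at 19 h to 809 at 23 h, and from 6870 at 28 h to 716 at 30 h. The lowest hours of the ratio lie between the phases, so this contrast does not cover them.

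Among the arms with a higher level in phase A, miR-41-5p comes from the mir-35 cluster. It measured 467, 562, 191 and 369 at 21, 22, 28 and 29 h and 101 to 189 in phase B (median 124). The 28 h library was only just above the highest phase B library. The log2 difference was 1.48 ± 0.29 (limma adjusted p = 0.0329). miR-35-5p, a passenger arm of the same cluster, measured 65.2, 88.8, 29.8 and 84.6 in phase A and 16.5 to 33.7 in phase B. Its groups overlapped through the 28 h library, and the difference was 1.29 ± 0.26 (limma adjusted p = 0.0357). miR-79-5p, the passenger arm of miR-79, measured 811, 724, 670 and 520 in phase A and 350 to 460 in phase B, a difference of 0.77 ± 0.13 (limma adjusted p = 0.0263). Its guide miR-79-3p differed by -0.06 ± 0.15 (adjusted p = 0.906). The calls of miR-41-5p, miR-35-5p and miR-79-5p held in 5, 3 and 6 of the 10 fits without 1 library.

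miR-255-5p, chosen after its values were seen because its mean of 42.4 falls under the minimum of 50 set for named arms, measured 93.8, 98.7, 61.9 and 54.2 in phase A. In phase B it ran from 7.87 to 37.4 with a median of 17.9. The groups did not overlap, and the log2 difference was 1.71 ± 0.29 (limma adjusted p = 0.0263). miR-240-5p, listed here as intestinal, increased over the whole window by 0.22 per hour on the log2 scale. It measured 1345 and 1531 at 21 and 22 h and 2731 and 2911 at 28 and 29 h, against 258 to 3036 in phase B, so that its groups overlapped fully and its difference of 0.95 ± 0.21 (limma adjusted p = 0.0483) rests on the linear term. Without that term it was 1.22 ± 0.65 (adjusted p = 0.672). miR-799 measured 101, 72.2, 119 and 132 in phase A and 125 to 205 in phase B, with overlap at 29 h, and its difference was -0.67 ± 0.13 (limma adjusted p = 0.0329) and -0.61 ± 0.19 without the linear term (adjusted p = 0.191). These calls held in 5, 2 and 4 of the 10 fits without 1 library for miR-255-5p, miR-240-5p and miR-799.

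Guide and passenger arms were then compared as groups. Of 224 guide arms 3 were higher and 2 lower in phase A (2.23%), and of 159 passenger arms 3 were higher and 1 lower (2.52%), so the share of called arms was close to the background in both. The median size of the difference, without regard to sign, was 0.11 in guides and 0.16 in passengers. In the 98 hairpins with a mean of 10 or more normalised counts in each arm, these medians were 0.11 and 0.23, and the passenger had the larger difference in 65 hairpins and the guide in 33. Passenger arms are rarer, and the contribution of counting noise to their larger differences was not tested.

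The ratio of guide to passenger within a hairpin tests the contrast of the arms directly. It differed between phases in 15 of 98 hairpins (15.3%, limma adjusted p under 0.05), being lower in phase A in 12 (12.2%) and higher in 3. The 12 lower ratios were those of let-7, lin-4, miR-237, miR-39, miR-44, miR-35, miR-40, miR-37, miR-52, miR-79, miR-56 and miR-55. The 3 higher ones were those of miR-255, miR-43 and miR-71. Among the lower ones, miR-35, miR-37, miR-39 and miR-40 lie in the same cluster, and miR-55 and miR-56 are neighbours on X. The 12 are therefore not all independent cases. The median over all 98 hairpins was -0.07. Counts without 1 library ran from 11 to 18, and 11 of the 15 hairpins were called in 10 of 10 such fits. miR-52 lost its call without 21 h (limma adjusted p = 0.0679), miR-71 without 21, 25, 28 or 31 h (0.0510 to 0.0721), miR-55 without 21, 22, 25 or 31 h (0.0510 to 0.0899) and miR-56 in 7 of 10 fits, those without 18, 21, 22, 24, 25, 29 or 31 h (0.0642 to 0.137). In the hours of 25 to 31 h alone 8 hairpins passed.

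**Figure D2:**
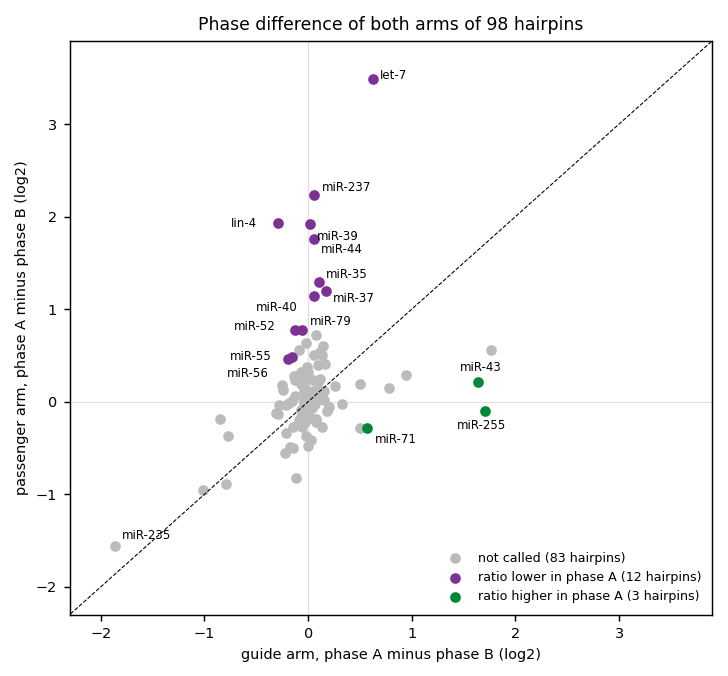
Phase A minus phase B on the log2 scale for the guide arm (x axis) and the passenger arm (y axis) of 98 hairpins, where the dashed line marks equal differences. The 12 hairpins with a lower ratio in phase A stand above the line with guide differences of -0.29 to 0.17, except for let-7 at 0.62. miR-235 lies near the line with both arms low, but its passenger is rare and its place depends on the pseudocount of 8. The lowest ratios of miR-235 fell between the phases, at 23 and 30 h.

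let-7 times the transition to the adult programme in the worm. Its passenger let-7-3p measured 2246, 2987, 752 and 2187 normalised counts at 21, 22, 28 and 29 h. In phase B it ran from 5.84 at 18 h over a median of 136 to 1333 at 31 h, so the groups overlapped through the 31 h library. The guide let-7-5p went from 5280 at 18 h to 247287 at 31 h. The guide was thus 28.6, 35.2, 176 and 58.7 times as abundant as the passenger in phase A, after the pseudocount, and 180 to 950 times in phase B. The groups of ratios did not overlap, but the 28 h library of phase A and the 19 h library of phase B (180) were nearly equal. The log2 ratio was lower in phase A by 2.87 ± 0.54 (limma adjusted p = 0.00341). Neither arm passed on its own, with 3.49 ± 0.91 for let-7-3p (limma adjusted p = 0.0863) and 0.62 ± 0.72 for let-7-5p (0.831).

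lin-4 acts early in the same timing pathway. lin-4-3p, its passenger, measured 184, 251, 51.9 and 372 in phase A, with the 28 h library low, and 12.9 to 137 in phase B. lin-4-5p was steadier at 2291 to 3166 in phase A and 2556 to 3862 in phase B. The guide exceeded the passenger 14.3, 12.3, 38.3 and 7.87 times in phase A and 26.7 to 151 times in phase B. These groups overlapped through the 28 h library, and the log2 ratio was lower by 2.21 ± 0.47 (limma adjusted p = 0.00492). For miR-237, which shares the seed of lin-4, the ratios were 67.9, 116, 168 and 279 in phase A and 464 to 716 in phase B. These groups did not overlap. The difference of -2.18 ± 0.28 had the smallest adjusted p of the 98 hairpins (limma, 0.000363).

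miR-39 of the mir-35 cluster showed the same form. miR-39-5p, the passenger, measured 496, 567, 192 and 257 in phase A against 37.4 to 232 in phase B, whereas the guide miR-39-3p differed by 0.01 ± 0.26. The guide to passenger ratios were 6.42, 7.79, 13.7 and 14.8 in phase A and 23.0 to 59.1 in phase B, without overlap (-1.91 ± 0.28, limma adjusted p = 0.000549). The hairpins miR-35, miR-40 and miR-37 of this cluster had ratios lower by 1.19 ± 0.19, 1.09 ± 0.24 and 1.03 ± 0.20. miR-44 lies beside miR-42 and miR-43. Its passenger miR-44-5p measured 6059, 4478, 3872 and 2391 in phase A and 382 to 2607 in phase B. The ratio was lower by 1.71 ± 0.39 (limma adjusted p = 0.00711). The guide miR-44-3p stayed between 247110 and 286672 in phase A, but its counts moved in a fixed proportion to those of miR-45-3p (2.91 to 2.94 in every library), so that reads of these arms may have been shared between both genes and both are uncertain.

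**Figure D3:**
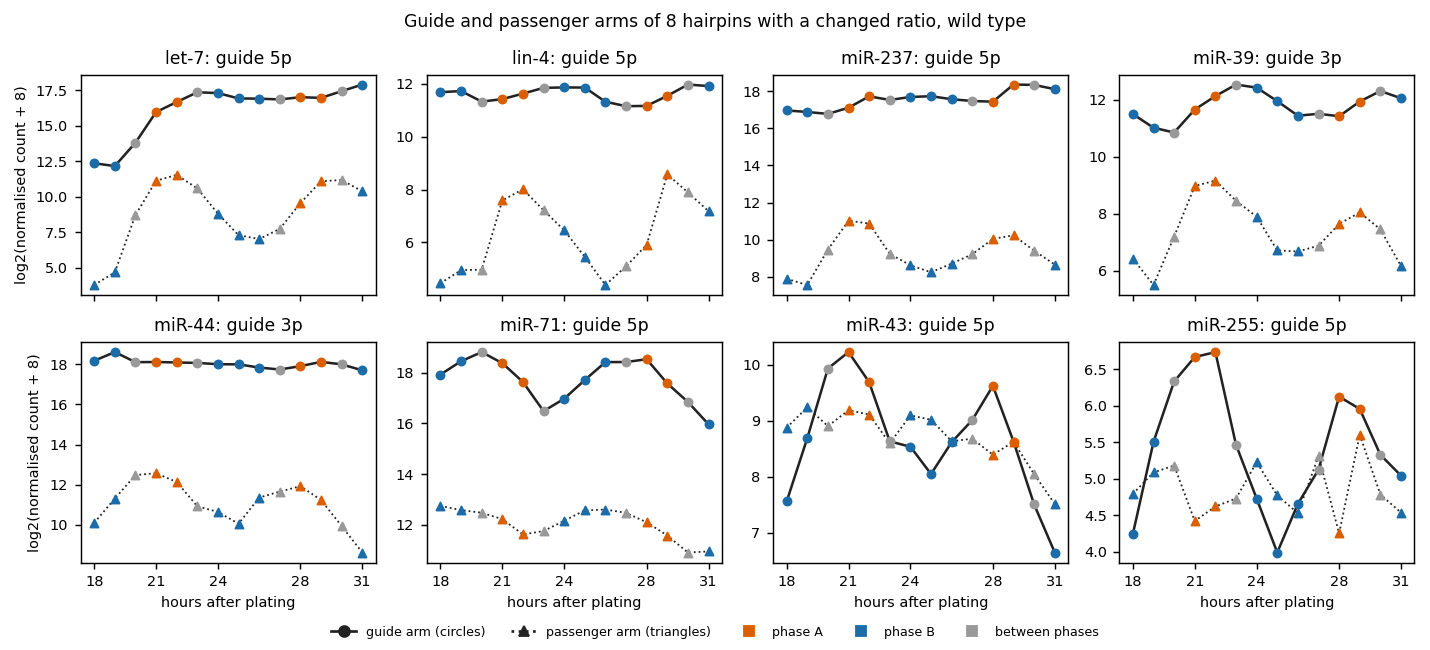
Log2 of normalised count plus 8 (y axis, scaled for each panel) of guide arms (solid line, circles) and passenger arms (dotted line, triangles) of 8 hairpins by hours after plating (x axis), 1 library per point and coloured by phase. In let-7, lin-4, miR-237, miR-39 and miR-44 the passenger is high near phase A and low between its peaks, whereas in miR-43 and miR-255 it is the guide that is high there.

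In the 3 hairpins with a higher ratio in phase A, the guide had the larger difference, but only miR-255-5p passed on its own. miR-43-5p measured 1187, 816, 779 and 388 in phase A and 92.3 to 405 in phase B (1.63 ± 0.37, limma adjusted p = 0.0557). miR-43-3p differed by 0.21 ± 0.20, and the ratio was higher by 1.42 ± 0.29 (limma adjusted p = 0.00482). The arms of miR-43 were almost equally abundant, at means of 492 and 429, so its guide is poorly defined. With the 3p arm as guide the sign of its ratio is reversed by construction, and 2 ratios were higher and 13 lower in phase A. The ratio of miR-255 was higher by 1.81 ± 0.38 (limma adjusted p = 0.00492), with a passenger of only 21.7 normalised counts on average. miR-71-5p, a very abundant arm linked to lifespan in the worm, measured 340689, 203704, 378997 and 195479 in phase A and 63928 to 358871 in phase B. Its ratio to miR-71-3p was 63.9 to 86.4 in phase A and 28.1 to 58.6 in phase B, a difference of 0.86 ± 0.24 (limma adjusted p = 0.0214), whereas the guide itself did not pass (0.57 ± 0.41, adjusted p = 0.721) and was at -0.074 for phase B without the 24 and 31 h libraries.

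Within each 7 h cycle the ratio had its extreme at nearly the same place. Of the 12 hairpins with a lower ratio in phase A, 11 had their lowest ratio of the first cycle (18 to 24 h) at 21 or 22 h, with miR-79 at 20 h, and 12 had their lowest ratio of the second cycle (25 to 31 h) at 28 or 29 h. For let-7 the lowest ratios were 28.6 at 21 h and 58.7 at 29 h, and the highest of the second cycle was 950 at 26 h. Of the 3 hairpins with a higher ratio, miR-43 and miR-255 had their highest values at 21 and 28 h, and miR-71 had its at 20 and 28 h. These hours are largely those of the test and are given as a description, and hairpins of the same cluster are not independent cases.

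The share of all counted reads on passenger arms was 2.00%, 1.90%, 1.59% and 1.74% at 21, 22, 28 and 29 h and 1.45% to 1.92% in phase B. At 29 h, the shallowest library, the binomial 95% Wilson interval was 1.73% to 1.75%, for counting error only. The means were 1.81% ± 0.18 (SD, n = 4) and 1.69% ± 0.18 (SD, n = 6), which did not differ beyond the spread (difference 0.121 percentage points, two-sided exact permutation test, p = 0.314, adjusted p = 0.419). The share also fell over the window, and after a linear hour term was removed the difference was 0.163 percentage points with p = 0.00952, the smallest value that the 210 arrangements of 4 and 6 libraries allow. The largest contributors to passenger reads were miR-229-3p (11.6% of them) and miR-46-3p (8.96%), neither of which belongs to a hairpin with a called ratio.

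Arms that peak midway between the phases cannot appear in this contrast. A cosine and sine of 7 h were therefore fitted with a linear term to all 14 wild-type libraries, which include those of the contrast. A rhythm was called for 54 of 392 arms (13.8%, limma F test, adjusted p under 0.05), 30 guides (13.1% of 229) and 24 passengers (14.7% of 163), and the peak exceeded the trough more than 2-fold in 32. All 9 arms called between phases were among them. The fit left 43 to 65 calls when 1 library was left out. With a period of 6 h 12 arms were called and with 8 h 61, so these hours do not single out 7 h from 8 h.

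The fitted peaks were spread over the whole cycle but dense late in phase A and just after it, as the heatmap of rhythmic arms shows. Between 20 and 23 h lay 30 of the 54 peaks. From 22 to 23 h there were 17 peaks, 11 of them of passengers, and from 23 to 24 h there were 13, 12 of them of guides. let-7-3p had the largest amplitude, 2.71 (log2, from the mean to the peak), with its peak at 22.1 ± 0.16 h. lin-4-3p followed with 1.79 at 22.4 ± 0.12 h. miR-39-5p (1.35, 22.1 h), miR-237-3p (1.33, 21.6 h) and miR-44-5p (1.29, 20.9 h) were the next passengers.

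**Figure D4:**
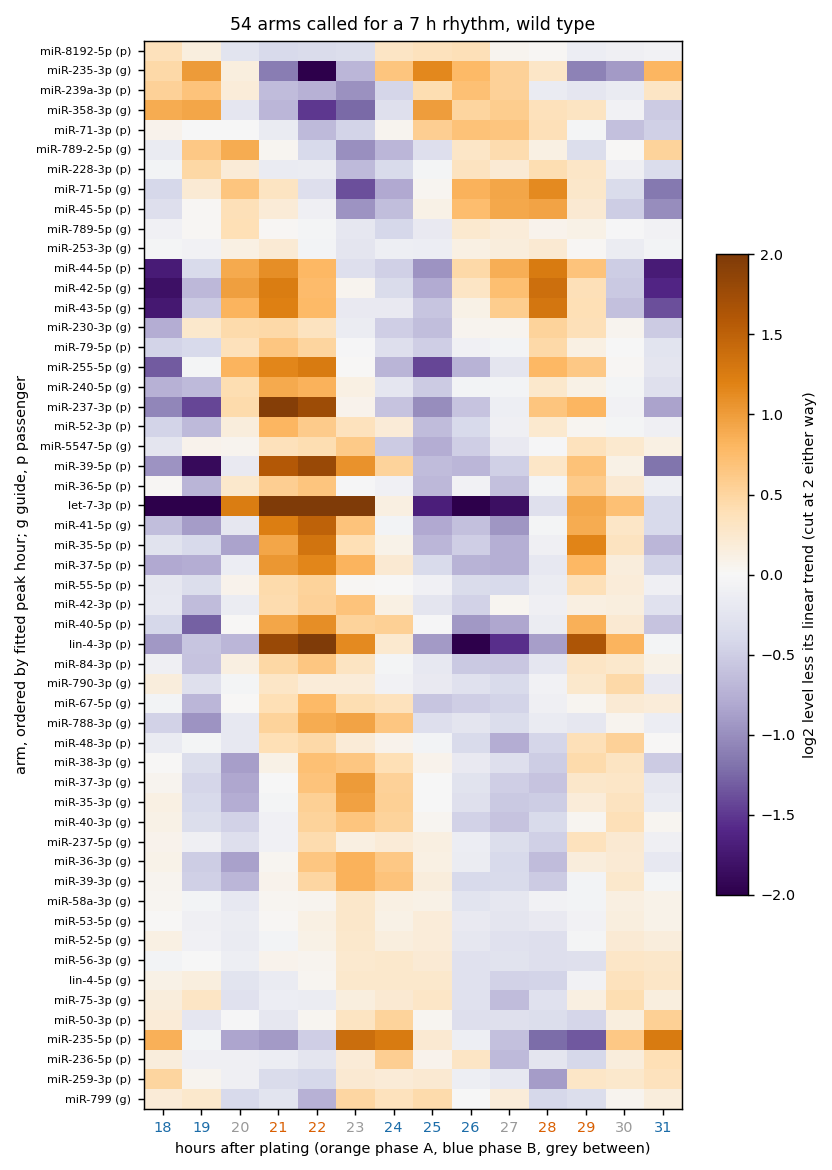
Each row is 1 of the 54 arms called for a 7 h rhythm, ordered from top to bottom by fitted peak hour, and each column is 1 library (x axis, hours after plating). Colour gives the log2 level less its linear trend. The passengers of let-7 and lin-4 are high at 21 to 23 h and again at 29 and 30 h, and miR-235-3p is low at 21 and 22 h and at 29 and 30 h.

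Among the guides, miR-235-3p had an amplitude of 1.31 and peaked at 18.6 ± 0.13 h, while its passenger peaked at 24.1 ± 0.15 h with an amplitude of 1.19. Within the 7 h cycle the guide thus followed the passenger by 1.49 h. miR-42-5p (1.25) and miR-43-5p (1.13), neighbours in 1 cluster, both peaked at 21.0 h, and miR-71-5p (1.04) peaked at 20.0 h. A rhythm was called for both arms of 11 hairpins, and in 10 of them the guide had the later peak. Among these, miR-35, miR-36, miR-37, miR-39 and miR-40 lie in the same cluster with guides peaking at nearly the same hour, so they are not independent cases. The delay was 0.80 h for miR-37, 1.12 h for miR-39, 1.32 h for lin-4 and 1.62 h for miR-52. The exception was miR-42, where the arm named as guide, miR-42-5p, peaked 1.36 h before miR-42-3p. With miR-42-3p as the guide, as the study modelled it, the guide is the later arm there too. Only the passenger was rhythmic in 12 hairpins, only the guide in 14 and neither in 61. The passenger had the larger amplitude in 67 of the 98 hairpins, most of which had no rhythm call in either arm. Among the rhythmic arms of these hairpins, the median amplitude was 0.59 in guides and 0.55 in passengers. Passenger arms are rarer, and the contribution of counting noise to their amplitudes was not tested.

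**Figure D5:**
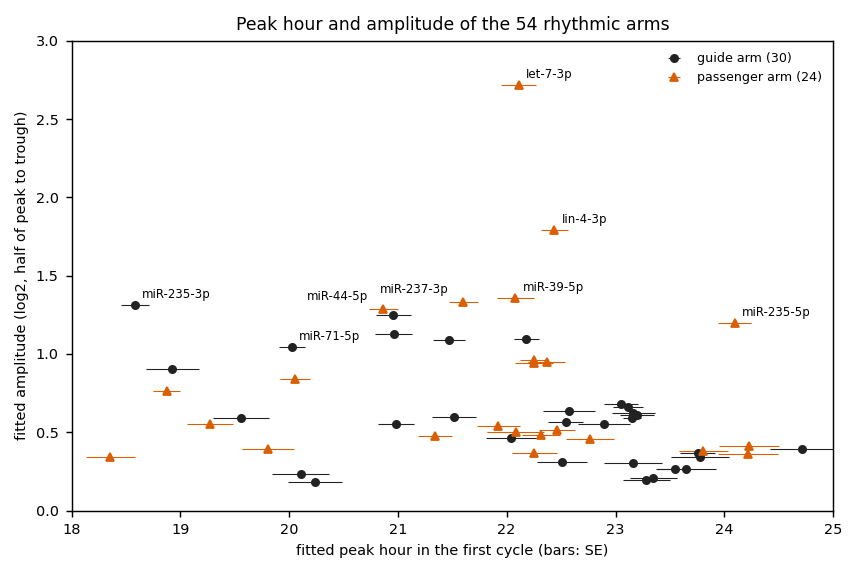
Fitted peak hour in the first cycle (x axis, bars give the SE) and amplitude (y axis, log2 from the mean to the peak) of the 30 guide arms (black circles) and 24 passenger arms (orange triangles) called for a rhythm. let-7-3p at 2.71 and lin-4-3p at 1.79 stand above all others, and 12 guides lie between 23 and 24 h.

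The mir-35 family, which is needed in the embryo, had a rhythm in 8 of 8 guide arms and 6 of 8 passenger arms. Over all arms, 13.1% of guides and 14.7% of passengers had one. Counted as guides here were miR-41-5p and miR-42-5p, although the paper's model has the opposite arm of both hairpins in that role. Of these opposite arms, miR-42-3p had a rhythm call and miR-41-3p had none. Between the phases only miR-41-5p and miR-35-5p passed. The rhythm calls of miR-38-3p and miR-36-5p held in only 7 of 14 fits without 1 library. The family's median differences between phases were 0.13 in guides and 0.93 in passengers, beside -0.0028 over all arms. The 3p guides of miR-35 to miR-40 had amplitudes of 0.55 to 0.68 and peaked at 22.9 to 23.2 h, at hours that belong to neither phase. miR-35-3p measured 3025 at 21 h, 6900 at 23 h and 3989 at 25 h. In the Ensembl annotation of WBcel235, the cluster from miR-35 to miR-41 spans 11537608 to 11538404 of chromosome II on the plus strand, in an intron of Y62F5A.9, a gene of the opposite strand. Those of miR-42, miR-43 and miR-44 are intergenic on chromosome II from 11889811 to 11890118.

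In the let-7 family, 0 of 7 guides and 3 of 6 passengers were rhythmic (let-7-3p, miR-84-3p and miR-48-3p), beside 13.8% of all arms, with 1 guide at an unadjusted p under 0.05 for rhythm. Between the phases 0 arms passed by limma, with 2 at an unadjusted p under 0.05, and 1 (let-7-3p) by edgeR and DESeq2. miR-84-3p measured 3496, 3848, 1802 and 2528 in phase A and 1512 to 2534 in phase B (0.53 ± 0.20, limma adjusted p = 0.274). At the guide level miR-48-5p differed by -0.07 ± 0.10 and miR-84-5p by 0.11 ± 0.21. In the lin-4 family both guides and both passengers were rhythmic, and the amplitudes were 0.37 for lin-4-5p and 0.30 for miR-237-5p, against 1.79 and 1.33 for their passengers. The rhythm call of miR-237-5p held in only 3 of 14 fits without 1 library, and TMM factors gave an adjusted p of 0.0641 (limma). The lin-4 gene lies on chromosome II from 5902254 to 5902347 in an intron of F59G1.4 on the same strand, that of miR-237 is intergenic on X from 8154084 to 8154182, and the let-7 locus lies on X (14743590 to 14745321 in RefSeq, the same assembly).

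Leaving aside the lists above and the miRNAs linked to EBAX-1, none of the 9 remaining lists had an arm called between the phases by limma, although 11 of their arms had an unadjusted p under 0.05, 5 passed edgeR and 9 passed DESeq2. The mir-51 family had 3 rhythmic guides of 6 and 2 rhythmic passengers of 6. With TMM factors miR-53-5p (limma adjusted p = 0.0512) and miR-56-3p (0.0508) lost the call, which held for miR-56-3p in 4 of 14 fits without 1 library. The family's passengers had a median difference of 0.48 against -0.10 in the guides. The mir-58 family, which holds the most abundant miRNAs of these larvae, had 1 rhythmic guide of 5, miR-58a-3p, with an amplitude of only 0.19, and with TMM factors it did not pass (limma adjusted p = 0.0904). Its passenger miR-58a-5p measured 8175, 7486, 7033 and 10696 in phase A and 3878 to 6827 in phase B, without overlap, but did not pass (0.64 ± 0.18, limma adjusted p = 0.103). The mir-44 family had 2 rhythmic passengers of 4 and 0 rhythmic guides of 4 by limma (0 also at an unadjusted p under 0.05). The mir-2 family had 1 rhythmic guide of 4, miR-43-5p. The study modelled miR-43-3p as the guide, and that arm had no rhythm call (amplitude 0.12). With miR-42-5p and miR-43-5p counted as guides, the mir-42 cluster had 2 rhythmic guides and 2 rhythmic passengers of 3 each. Among the late-rising miR-357, miR-358 and miR-359 there was 1 called guide, miR-358-3p, and the call held in only 7 of 14 fits without 1 library. Its log2 level rose at every hour from 3.14 at 22 h to 9.05 at 31 h, so the call does not show a repeated rise and fall. The mir-72 family, the mir-63/64 family and the mirtrons had 0 rhythmic arms by limma (2, 0 and 1 at an unadjusted p under 0.05). The list of miRNAs linked to EBAX-1 held miR-71, miR-235, miR-247 and miR-788. The paper also reports higher levels of the mir-35 family, listed apart here, when EBAX-1 is lost. The 4 listed miRNAs had 3 rhythmic guides of 4 and 2 rhythmic passengers of 4, beside 13.8% of all arms. Both arms of miR-235 were the calls of this list between the phases. With TMM factors miR-788-3p, the arm counted here as guide, did not pass for rhythm (limma adjusted p = 0.0512). The study modelled miR-788-5p as the guide, and that arm had no rhythm call (amplitude 0.17).

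Finally, the phase difference was compared between the first cycle (18 to 24 h) and the second (25 to 31 h), each with 2 phase A and 3 phase B libraries at matching places. The interaction of phase and cycle passed for 0 of 383 arms (0%, limma), with 23 at an unadjusted p under 0.05. let-7-3p had the smallest p. Fitted in each cycle alone, its difference was 4.62 in the first and 1.41 in the second, and in the joint fit with 1 hour term the change was -3.48 ± 0.58 (limma adjusted p = 0.0950). With a minimum mean of 10 it passed (0.0275), as it did without the 24 h library (0.0147), where let-7-5p and miR-85-3p passed too. miR-237-3p differed by 2.76 in the first cycle alone and 1.55 in the second alone (interaction in the joint fit, limma adjusted p = 0.259). Across 211 arms with means of 50 or more, the differences of both cycles correlated with Pearson's r = 0.594 and Spearman's rho = 0.398, and 124 had the same sign. This is a description across arms that share libraries.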

How the data were processed

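Total RNA of whole larvae was sequenced as single-end small RNA libraries. The authors, as the study's methods state, removed adapters with QuasR, aligned reads with Bowtie to ce10 with up to 100 hits per read and counted reads whose 5′ end lay within 3 bp of a mature arm of miRBase v22. Bowtie and ce10 are also named in the submitters' processing notes, without versions. Whole counts for 437 arms make up the deposited count table. In the deposited log2 table the authors scaled counts to the library total and added a pseudocount of 8, and recomputation differed by at most 0.0005. Values are therefore shares, and rare arms are compressed. No library was pooled and 0 pairs were identical.

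Phase A and phase B were set by the hour in the labels. Arms with a read in the 10 libraries were fitted in limma 3.58.1 (R 4.3.3) with phase and hour, and 7 residual degrees of freedom. Ratios were fitted likewise, and the rhythm fit had 10 residual degrees of freedom. Single library values were compared by exact permutation. The calculations were tested on simulated data. Named are up to 10 called arms each way with a mean of at least 50 and the same sign in both cycles, up to 5 hairpins each way by ratio, and members of the miRNA lists. The phases, lists and rules were chosen with earlier results of these data known. Alternatives were pseudocounts of 1 and 32, minimum means of 10 and 50, TMM factors and the quasi-likelihood test of edgeR 4.0.16, size factors and the Wald test of DESeq2 1.42.0, each library left out, other hour terms, single cycles, periods of 6 and 8 h, and 0.01 as the threshold. Added after seeing the data were phase B without 24 and 31 h, and the 3p arm as guide in miR-41, miR-42 and miR-43. Gene positions are from WBcel235, which is not the authors' build, and no sequences were used here.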

Additional observations from a re-analysis of the deposited data

How the results depend on the processing

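The number of arms called between the phases (9) was the least stable result. It was 4 with a pseudocount of 32, 16 with a minimum mean of 10, 1 at a threshold of 0.01, 18 with the quasi-likelihood test of edgeR (15 higher and 3 lower), 26 with the Wald test of DESeq2 (22 and 4), 5 without the hour term and 5 with a quadratic one. It was 2 in 18 to 24 h alone (let-7-3p and lin-4-3p), 0 in 25 to 31 h alone and 18 for phase B without the 24 and 31 h libraries, and 1 to 18 when 1 library was left out. Each single cycle holds only 2 phase A and 3 phase B libraries, so these fits have little power. Other settings gave 6 to 13. The 15 called ratios became 8 in 25 to 31 h alone, and 11 to 18 without 1 library. The difference in passenger share was 0.163 percentage points after removal of the hour term and 0.0569 to 0.193 without 1 library. The 54 rhythms became 31 at a threshold of 0.01 and 12 with a period of 6 h, and 43 to 65 without 1 library. The interaction of phase and cycle, 0 calls, gave 2 with TMM factors (miR-358-3p and let-7-3p), 1 with a minimum mean of 10, 2 with a minimum of 50, and 0 to 3 without 1 library. The causes of these changes were not tested. Signs and calls were followed under both pseudocounts, TMM and DESeq2 factors, edgeR, DESeq2, no hour term and the cycle as a block. Phase B without 24 and 31 h and each library left out were also followed. Single cycles, other hour terms, minimum means and the 0.01 threshold were not. The arms followed were the called ones and the rhythmic list members. Among them no called arm changed its sign, and of the called ratios only that of miR-43 did, by construction, with its 3p arm as guide. Of the values of these arms, 642 kept their direction and side of the threshold, 65 lost a call and 42 gained one. A further 30, of 11 arms without a call, changed sign. Of the values of called ratios 205 kept both and 20 lost the call. For phase B without the 24 and 31 h libraries the differences were -0.074 for miR-71-5p, -0.047 for miR-45-5p, 0.072 for miR-58a-3p, 0.036 for miR-53-5p and -0.19 for miR-228-3p, which was at -0.046 without the hour term and with the cycle as a block. miR-39-3p was at -0.00839 with DESeq2 size factors, -0.00591 with edgeR and -0.021 with DESeq2. Without 1 library the differences ran from -0.080 to 0.26 for miR-35-3p, -0.14 to 0.28 for miR-36-3p, -0.043 to 0.37 for miR-37-3p, -0.16 to 0.17 for miR-39-3p, -0.13 to 0.18 for miR-40-3p, -0.072 to 0.027 for miR-58a-3p, -0.039 to 0.22 for miR-228-3p, -0.089 to 0.010 for miR-53-5p and -0.073 to 0.22 for miR-237-5p. Other scalings moved the median of all arms to between -0.018 and -0.0068. The labels give no replicate numbers by which the phases could be paired. With the cycle as a block 6 arms were called, without miR-235-5p, miR-240-5p and miR-799, and 15 ratios. Depth limits rare arms, since 3 counts are 2.15 to 5.08 normalised counts.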
